A study of Mus musculus with 8 samples.

Results

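The genes described here are 9 regulators of the G1 phase of the cell cycle: the D cyclins Ccnd1, Ccnd2 and Ccnd3, their kinases Cdk4 and Cdk6, and the CDK inhibitors Cdkn1a, Cdkn1b, Cdkn2c and Cdkn2d. They were picked by symbol, each matched 1 row among the 55487 genes of the table, and all 9 passed the filter on low counts along with 18884 genes in all. The values come from RNA sequencing of mouse cells labelled as pro-B cells, an early stage of B cell development in the marrow. In 4 libraries the label is a CD25 knockout, and the other 4 carry a wild type label. Il2ra encodes CD25, one chain of the receptor for interleukin-2. Strain, age, the allele and the way the cells were isolated are not stated in the sources used. These also do not tie each library to a mouse of its own, so the p-values describe the spread between libraries, which may be technical in part. Y-linked RNA, given below, was present in some libraries of each group and nearly absent in others, so neither group came from 1 mouse alone.

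D cyclins are made in answer to growth factors and bind CDK4 or CDK6. The active complexes phosphorylate the retinoblastoma protein and its relatives, which frees E2F transcription factors to switch on genes of DNA synthesis. The INK4 inhibitors, among them p18 (Cdkn2c) and p19 (Cdkn2d), bind CDK4 and CDK6 directly, while the CIP/KIP inhibitors p21 (Cdkn1a) and p27 (Cdkn1b) bind cyclin-CDK complexes and restrain CDK2. In the mouse, cyclin D3 is needed for the expansion of pre-B cells, the stage that follows the pro-B cell.

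Several properties of the libraries bear on all values below. Totals ran from 48637424 to 55730608 counts in the labelled knockout and from 43974037 to 57988772 in wild type. Il2ra itself had 181 ± 43.1 CPM (counts scaled to library size with TMM factors) in the labelled knockout and 193 ± 35.9 CPM in wild type (SD, n = 4 each), so the counts of the whole gene do not separate the groups and the label is used as given. Dntt, the terminal transferase gene of early B lineage cells, had 16.1 to 80.2 CPM in the labelled knockout and 30.5 to 119 CPM in wild type. Kit, a receptor of early pro-B cells, was nearly absent at 0.701 to 1.69 CPM in the labelled knockout and 0.896 to 3.20 CPM in wild type. The kappa light chain gene Igkc, a product of later stages, had 2873 to 3492 CPM in the labelled knockout and 2734 to 3935 CPM in wild type. The 12 pro-B and B lineage markers summed to 8816 to 10351 CPM in the labelled knockout and 8673 to 10165 CPM in wild type. Of these, 4 had higher and 8 lower values in the labelled knockout. Vpreb1 (30.8 to 107 against 58.8 to 151 CPM) and Igll1 (38.8 to 159 against 88.6 to 206 CPM) were among the lower ones. The 6 markers of the pre-B stage and later summed to 19027 to 22059 and 17607 to 21299 CPM. Labelled knockout 2 and 4 and wild type 2 held RNA of Y-linked genes (483 to 505 CPM summed), and the other 5 libraries had at most 2.79 CPM. Wild type 2 also held Xist RNA, at 60.0 CPM. Labelled knockout 1 and 3 had the lowest sums of 14 proliferation markers, 2419 and 1677 CPM, against 3402 and 3407 CPM in labelled knockout 2 and 4 and 3498 to 4089 CPM in wild type. Labelled knockout 1 and 3 were also the libraries of that group nearly without Y-linked RNA. Fits that leave them out therefore change the balance of sex between the groups as well. Wild type 4 had a sum of 8929 CPM for 11 erythroid markers, against 3322 to 4250.4 CPM in the other wild type libraries and 513 to 2585 CPM in the labelled knockout. No marker of the B lineage, proliferation or erythroid lists was at 0 in any library. Summed markers of natural killer cells were at 8.17 to 27.6 CPM in the labelled knockout and 30.6 to 42.3 CPM in wild type, those of monocytes at 35.8 to 157 and 123 to 216 CPM, and those of neutrophils at 117 to 473 and 249 to 547 CPM. T cell markers summed to at most 3.01 CPM, with Cd3e at 0 in labelled knockout 3 and wild type 1 and 3. The part of these cells in the results below was not tested.

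Per kilobase of exon, p19 transcripts had the highest level of the 9 and cyclin D1 transcripts the lowest, a ranking that depends on the exon lengths used. Averaged over the 8 libraries, Cdkn2d had 179 ± 21.4 RPKM (CPM divided by the exon length in kilobases; SD, n = 8), Cdk4 77.5 ± 7.23 RPKM and Ccnd3 45.9 ± 19.8 RPKM. Next came Cdkn1b at 8.59 ± 1.22, Cdkn2c at 7.08 ± 2.43, Ccnd2 at 5.64 ± 0.935 and Cdkn1a at 5.61 ± 1.14 RPKM. Cdk6, at 1.39 ± 0.223 RPKM, and Ccnd1, at 0.216 ± 0.0773 RPKM, closed the order. Cdkn2d lay above Cdk4, Cdk4 above Ccnd3 and Ccnd3 above Cdkn1b in all 8 libraries. Cdkn1b, Cdkn2c, Ccnd2 and Cdkn1a form a middle group whose order is not fixed: Cdkn1b exceeded Cdkn2c in 7 of 8 libraries, Cdkn2c exceeded Ccnd2 in 5, and Ccnd2 exceeded Cdkn1a in 3. Cdk6 and Ccnd1 lay below every other member in all 8 libraries. The exon length used here joins the exons of all annotated isoforms, which lowers the RPKM of genes with long alternative ends such as Cdk6 (13989 bases). It was 8775 bases for Ccnd3, 3249 for Cdk4 and 1574 for Cdkn2d. In CPM, without division by length, Ccnd3 had a mean of 403, against 282 for Cdkn2d and 252 for Cdk4. The order at the top therefore rests on the lengths.

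**Figure D1:**
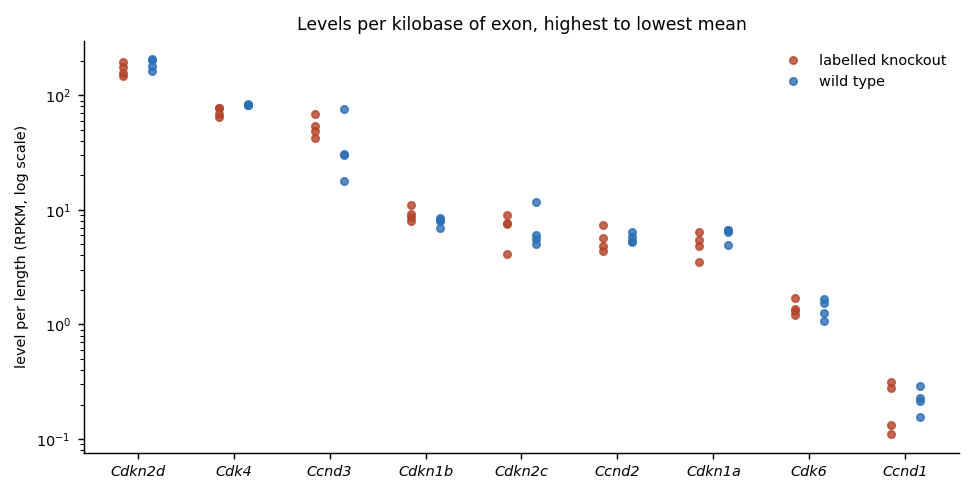
Level per kilobase of exon (RPKM, logarithmic axis) of the 9 genes, ordered by their mean over the 8 libraries; each point is a library, with the labelled knockout left of wild type. Cdkn2d, Cdk4 and Ccnd3 stand apart at the top and Ccnd1 at the bottom, and the groups overlap for every gene except Cdk4.

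The comparison of the labelled knockout with wild type asks whether the transcripts that set the pace of G1 differ between the labels. The quasi-likelihood test of edgeR, with p-values adjusted over all genes by the Benjamini-Hochberg method, called 0 of the 9 genes and 0% of the 18884 genes tested. Log2 fold changes were above 0 for 4 members and below 0 for 5, with a median of -0.023, beside 0.0033 over all genes tested. At an unadjusted p under 0.05 there was 1 member, Cdk4, and it was lower, against 12.6% of all genes (5.53% higher and 7.11% lower). Cdk4 was also the single member whose groups did not overlap, against 6.79% of all genes (2.62% higher and 4.17% lower). With 1 of 9 in each count, neither share stands out from the background. DESeq2 called 6 genes and limma-voom 0 over the whole table, with no member among them.

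**Figure D2:**
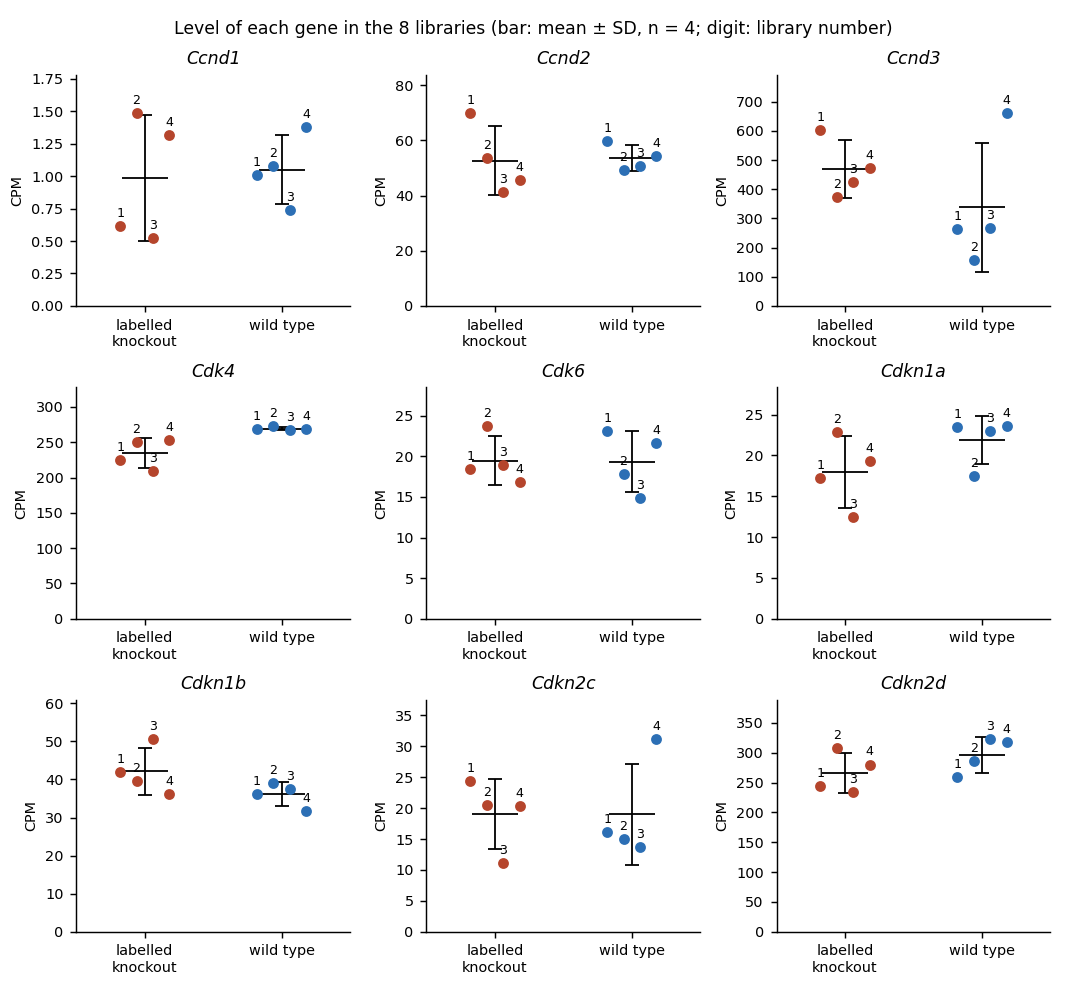
CPM of each gene in the 8 libraries, labelled knockout left and wild type right; points are libraries marked with their number, and the bar gives mean ± SD (n = 4). Wild type 4 is far above wild type 1 to 3 for Ccnd3 (661 CPM against 157 to 267 CPM) and for Cdkn2c, and the 4 wild type values of Cdk4 lie close together.

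Ccnd3 (ENSMUSG00000034165.16, chromosome 17, 47505051 to 47599691, plus strand, mm10) encodes cyclin D3 and was the most variable member above 5 CPM. It had 604, 375, 424 and 473 CPM in labelled knockout 1 to 4, against 265, 157, 267 and 661 CPM in wild type 1 to 4. All 4 libraries of the labelled knockout lay above wild type 1, 2 and 3 and below wild type 4, so the groups overlap through a single library. The means were 469 ± 98.6 CPM and 337 ± 222 CPM (SD, n = 4 each), with a log2 fold change of 0.48 ± 0.38 (SE, adjusted p = 0.59, 95% interval from -0.37 to 1.32). Without wild type 4 the remaining wild type mean was 229.5 ± 63.1 CPM (SD, n = 3), and the log2 fold change of 1.03 ± 0.21 (SE) passed at an adjusted p of 0.0493 (edgeR). In that fit 1.86% of 19506 genes passed, with 1.84% higher, and 0.0493 was the smallest adjusted p of any gene. Removing the 1 library that makes the groups overlap separates them by construction, so p-values of Ccnd3 without wild type 4 are no evidence of a difference. Without wild type 1, 2 or 3 instead, the log2 fold change was 0.37, 0.26 and 0.38 (edgeR adjusted p = 0.749, 0.848 and 0.795). With sex read from Y-linked RNA as a further term the log2 fold change was 1.14 ± 0.16 without wild type 4 (edgeR adjusted p = 0.00309). There 16% of genes passed, with 11.9% higher. With all 8 libraries and the sex term it was 0.73 ± 0.37 (adjusted p = 0.265), which did not pass. Over all 19 alternatives the log2 fold change of Ccnd3 ran from 0.26 to 1.14, with adjusted p from 0.00309 to 0.995. Among libraries with Y-linked RNA, Ccnd3 had 375 and 473 CPM in the labelled knockout and 157 CPM in the 1 wild type library. Among those without it, the labelled knockout had 604 and 424 CPM, against 265, 267 and 661 CPM in wild type. Exons of Ccnd3 share 4.11% of their bases with Bysl, and the count of its pseudogene Ccnd3-ps was at most 0.241% of its own.

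Fewer cells of a kind and less RNA per cell cannot be told apart in such bulk libraries. Immediate early genes (8 listed, 7 tested), which cells switch on within minutes of a stimulus, had a summed level of 385, 142, 543 and 209 CPM in labelled knockout 1 to 4, against 87.0, 66.3, 82.8 and 243 CPM in wild type 1 to 4. In wild type, library 4 is the high one in both and library 2 the low one, while in the labelled knockout library 2 is the lowest in both and the highest differs. All 7 tested genes had higher values in the labelled knockout, 0 passed, and none was at 0 counts in any library. Their part in the Ccnd3 values was not tested.

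RefSeq lists a pair of starts for Ccnd3, and the gene count sums the transcripts of both. The 250 bases before each start (GRCm38.p6) are shown because no other member spread as widely above 5 CPM; capitals mark matches, on either strand, to a FOXO motif (GTAAACA) or a GC box (GGGCGG). The upstream window lies at chr17:47504801-47505050 and the window before the internal start at chr17:47593217-47593466, both on the plus strand.
Ccnd3, upstream start: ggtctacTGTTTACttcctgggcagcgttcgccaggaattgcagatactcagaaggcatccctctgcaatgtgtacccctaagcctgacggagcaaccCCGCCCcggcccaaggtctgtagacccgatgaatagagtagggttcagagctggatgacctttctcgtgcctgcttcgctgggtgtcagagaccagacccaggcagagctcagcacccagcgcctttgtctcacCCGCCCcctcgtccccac
Ccnd3, internal start: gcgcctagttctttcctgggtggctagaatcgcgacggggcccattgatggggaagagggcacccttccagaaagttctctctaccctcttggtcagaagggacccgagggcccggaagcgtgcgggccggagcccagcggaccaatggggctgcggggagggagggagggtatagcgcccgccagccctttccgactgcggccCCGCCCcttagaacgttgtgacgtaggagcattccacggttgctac
The upstream window held 1 FOXO match, whose first base lies at -243 from the start, and 2 GC boxes at -152 and -18, and the internal window held 1 GC box at -46. Over all 32851 RefSeq windows of this length, 3.17% held the FOXO motif and 32.7% a GC box. Neither window matched the E2F motif (TTTGGCGC, TTTGCCGC, TTTCGCGC or TTTCCCGC, in 1.86% of windows) or the STAT motif (TTCNNNGAA, in 7.02%). A match is a description of letters and no evidence of binding. Of the 9 genes, 7 had entries in this table; Ccnd1 and Ccnd2 are not shown.

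Ccnd2 (ENSMUSG00000000184.12, chromosome 6, 127125162 to 127152193, minus strand) encodes cyclin D2. It had 69.9, 53.6, 41.4 and 45.6 CPM in labelled knockout 1 to 4, against 59.8, 49.1, 50.6 and 54.4 CPM in wild type 1 to 4. The highest and the lowest library were both in the labelled knockout. With all 8 libraries the log2 fold change was -0.023 ± 0.16 (SE, adjusted p = 0.962), and the 95% interval ran from 0.763-fold to 1.27-fold. Ccnd1 (ENSMUSG00000070348.5, chromosome 7, 144929931 to 144939925, minus strand), the cyclin D1 gene, was close to the floor with 30, 81, 26 and 73 counts in labelled knockout 1 to 4 and 45, 61, 33 and 77 counts in wild type 1 to 4. That is 0.619, 1.48, 0.521 and 1.32 CPM, against 1.01, 1.08, 0.736 and 1.38 CPM. Labelled knockout 1 and 3, where proliferation marker sums were lowest, held the smallest Ccnd1 values of all 8 libraries, and labelled knockout 2 was the highest. The log2 fold change of Ccnd1 was -0.091 ± 0.39 (SE, adjusted p = 0.935, 95% interval from 0.515-fold to 1.71-fold). The values are therefore compatible with differences in either direction inside that interval. Of the exon bases of Ccnd1, 23.4% are shared with LTO1, so part of these few counts may belong to either gene.

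Within each library the D cyclin pool was mostly cyclin D3. Per length, Ccnd3 made up 90.1%, 87.7%, 91.5% and 91.3% of the summed D cyclin level in labelled knockout 1 to 4, against 82.1%, 76.6%, 84.6% and 92.5% in wild type 1 to 4. Wild type 4 again had the highest share and wild type 1 to 3 the lowest 3. The share of Ccnd2 was 9.49 ± 1.62% in the labelled knockout and 15.4 ± 6.36% in wild type, and that of Ccnd1 0.375 ± 0.225% and 0.589 ± 0.276% (SD, n = 4 each). The summed level was 76.4, 48.7, 52.8 and 59.0 RPKM in labelled knockout 1 to 4, against 36.8, 23.3, 36.0 and 81.4 RPKM in wild type 1 to 4. The highest sum was in wild type 4 and the lowest in wild type 2, as for Ccnd3 alone.

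**Figure D3:**
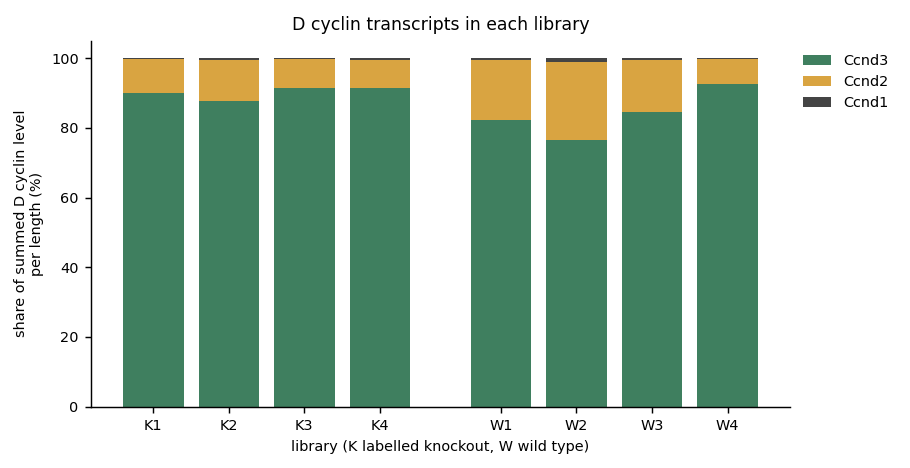
Share (%) of Ccnd3, Ccnd2 and Ccnd1 in the summed D cyclin level per length, in each library, with the labelled knockout (K) left of wild type (W). Ccnd3 takes 76.6% to 92.5% everywhere, and its lowest shares are in wild type 1, 2 and 3.

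Cdk4 (ENSMUSG00000006728.12, chromosome 10, 127063534 to 127067920, plus strand) encodes the more abundant of the kinases that D cyclins bind. It had 224, 250.5, 209 and 253 CPM in labelled knockout 1 to 4, against 269, 273, 267 and 269 CPM in wild type 1 to 4. Every library of the labelled knockout lay below every wild type library. The gap between the nearest libraries, 253 and 267 CPM, was smaller than the spread within the labelled knockout. Cdk4 averaged 234 ± 21.3 CPM in the labelled knockout and 269 ± 2.56 CPM in wild type (SD, n = 4 each). The log2 fold change was -0.20 ± 0.088 (SE), 0.869-fold, with an unadjusted p of 0.0446 and an edgeR adjusted p of 0.391, which did not pass. Without labelled knockout 1 and 3 it was -0.12 ± 0.10, and over all alternatives it ran from -0.29 to -0.12 with adjusted p from 0.111 to 0.995. Labelled knockout 1 and 3 were the lowest of their group for Cdk4, so leaving them out moves its value toward 0 by construction. They were likewise the farthest of their group from wild type for Cdkn2d, Cdkn1b and Cdkn1a, whose fits without them, given below, carry the same limit. Proliferation marker sums also did not overlap between the groups, at 1677 to 3407 CPM in the labelled knockout and 3498 to 4089 CPM in wild type, and were lowest in the same libraries 3 and 1. Their part in the Cdk4 values was not tested. Of the exon bases of Cdk4, 19.7% also lie in exons of Tspan31 on the other strand, and fragments there cannot be assigned without strand.

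Shown next are the 250 bases before the RefSeq start of Cdk4 (chr10:127063285-127063534, plus strand, GRCm38.p6), the member whose groups did not overlap. Capitals mark E-boxes (CACGTG, the letters that MYC and related factors bind) and a GC box.
Cdk4: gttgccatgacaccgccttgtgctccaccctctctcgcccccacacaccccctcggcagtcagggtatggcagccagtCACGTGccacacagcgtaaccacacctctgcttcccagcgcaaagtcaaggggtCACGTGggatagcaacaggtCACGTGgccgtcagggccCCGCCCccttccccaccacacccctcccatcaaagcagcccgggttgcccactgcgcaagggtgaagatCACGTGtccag
The window held 4 E-boxes, with first bases at -172, -118, -98 and -11 from the start, and 1 GC box at -80. An E-box of these letters was found in 6.02% of all windows, and among the members otherwise in Cdk6, with 1 at -220. Myc itself had 7.22, 8.74, 5.17 and 6.99 CPM in labelled knockout 1 to 4, against 6.81, 2.91, 4.20 and 8.39 CPM in wild type 1 to 4, with overlapping groups (log2 fold change 0.33 ± 0.32 SE, adjusted p = 0.653, edgeR).

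Cdk6 (ENSMUSG00000040274.11, chromosome 5, 3341485 to 3531008, plus strand), the second D cyclin kinase, was far below Cdk4. It had 18.4, 23.7, 19.0 and 16.8 CPM in labelled knockout 1 to 4, against 23.1, 17.8, 14.9 and 21.6 CPM in wild type 1 to 4. The groups overlap throughout, with a log2 fold change of 0.0096 ± 0.17 (SE, adjusted p = 0.985, 95% interval from 0.769-fold to 1.32-fold). Per length, the ratio of Cdk4 to Cdk6 was 52.5 ± 8.67 in the labelled knockout and 61.7 ± 12.4 in wild type (SD, n = 4 each). These ratios ran from 45.4 to 64.7 and from 50.04 to 77.1, so they overlap. The sum of both kinases per length was 65.6 to 79.1 RPKM in the labelled knockout and 83.2 to 85.3 RPKM in wild type, without overlap, as for Cdk4 alone.

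Among the INK4 inhibitors, Cdkn2d (ENSMUSG00000096472.2, chromosome 9, 21288410 to 21291407, minus strand) was the more abundant and the steadier. It had 245, 307, 234 and 280.3 CPM in labelled knockout 1 to 4, against 259, 285, 323 and 318 CPM in wild type 1 to 4. Labelled knockout 1 and 3 lay below every wild type library, and the other two did not. The log2 fold change was -0.15 ± 0.12 (SE, adjusted p = 0.572), and without labelled knockout 1 and 3 it was -0.034 ± 0.13. Its pattern over the libraries was the nearest to that of Cdk4 among all pairs of members, with a root mean square difference of 0.11 between their log2 CPM deviations. Both genes varied little, and 32.9% of the 8701 genes lay within 0.2 of Cdk4 and 24% within 0.2 of Cdkn2d. No exon base of Cdkn2d is shared with another gene, and none of its stretches of 50 bases recurs in another gene's transcripts. Per kilobase of exon it has the highest level of the 9 genes, so its promoter window is given too (chr9:21291210-21291459, minus strand, GRCm38.p6). GC boxes are in capitals at -118, -106 and -38.
Cdkn2d: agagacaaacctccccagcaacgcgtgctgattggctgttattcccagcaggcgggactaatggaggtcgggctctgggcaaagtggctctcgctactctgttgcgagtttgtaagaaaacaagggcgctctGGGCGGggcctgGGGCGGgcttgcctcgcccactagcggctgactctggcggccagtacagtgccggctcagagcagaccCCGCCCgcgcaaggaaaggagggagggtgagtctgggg

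Cdkn2c (ENSMUSG00000028551.14, chromosome 4, 109660876 to 109667189, minus strand) had nearly equal group means and very unequal libraries. It had 24.3, 20.4, 11.04 and 20.3 CPM in labelled knockout 1 to 4, against 16.2, 15.005, 13.6 and 31.2 CPM in wild type 1 to 4. The highest library, wild type 4, and the lowest, labelled knockout 3, differed 2.83-fold. The means were 19.0 ± 5.64 CPM and 19.0 ± 8.21 CPM (SD, n = 4 each), with a log2 fold change of 0.0017 ± 0.31 (SE, adjusted p = 0.999). Without wild type 4 the log2 fold change was 0.35 ± 0.24 (adjusted p = 0.436), and without labelled knockout 1 it was -0.15 ± 0.33 (adjusted p = 0.93), so its sign rests on single libraries. Over all alternatives the adjusted p of Cdkn2c ran from 0.422 to 0.999. Per length, Cdkn2d exceeded Cdkn2c 25.6 ± 7.90-fold in the labelled knockout and 29.4 ± 9.66-fold in wild type (SD, n = 4 each).

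Of the CIP/KIP inhibitors, Cdkn1b (ENSMUSG00000003031.14, chromosome 6, 134920401 to 134925513, plus strand) had higher and Cdkn1a lower values in the labelled knockout, and neither passed. Cdkn1b, the p27 gene, had 42.1, 39.5, 50.7 and 36.2 CPM in labelled knockout 1 to 4, against 36.2, 39.1, 37.4 and 31.8 CPM in wild type 1 to 4. Labelled knockout 1, 2 and 3 exceeded every wild type library, by the most in 3. The log2 fold change was 0.22 ± 0.13 (SE, adjusted p = 0.483, 95% interval from 0.95-fold to 1.43-fold), and 0.045 ± 0.15 without labelled knockout 1 and 3. Cdkn1a (ENSMUSG00000023067.14, chromosome 17, 29090976 to 29100727, plus strand), the p21 gene and a target of p53, had 17.2, 22.9, 12.4 and 19.3 CPM in labelled knockout 1 to 4, against 23.5, 17.5, 23.0 and 23.6 CPM in wild type 1 to 4. Wild type 2 stood below the other wild type libraries and near labelled knockout 1. The log2 fold change of Cdkn1a was -0.29 ± 0.19 (SE, adjusted p = 0.531), and -0.069 ± 0.17 without labelled knockout 1 and 3. The p53 gene Trp53 had 264, 221, 260.1 and 188 CPM in labelled knockout 1 to 4, against 193, 189, 203 and 188 CPM in wild type 1 to 4 (log2 fold change 0.27 ± 0.12 SE, adjusted p = 0.391), with overlapping groups. The sum of Cdkn1a and Cdkn1b per length was 14.3 ± 0.745 RPKM in the labelled knockout and 14.1 ± 0.617 RPKM in wild type (SD, n = 4 each). Their ratio, p27 over p21 transcripts, was highest in labelled knockout 3 at 3.18 and lowest in wild type 4 at 1.05.

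**Figure D4:**
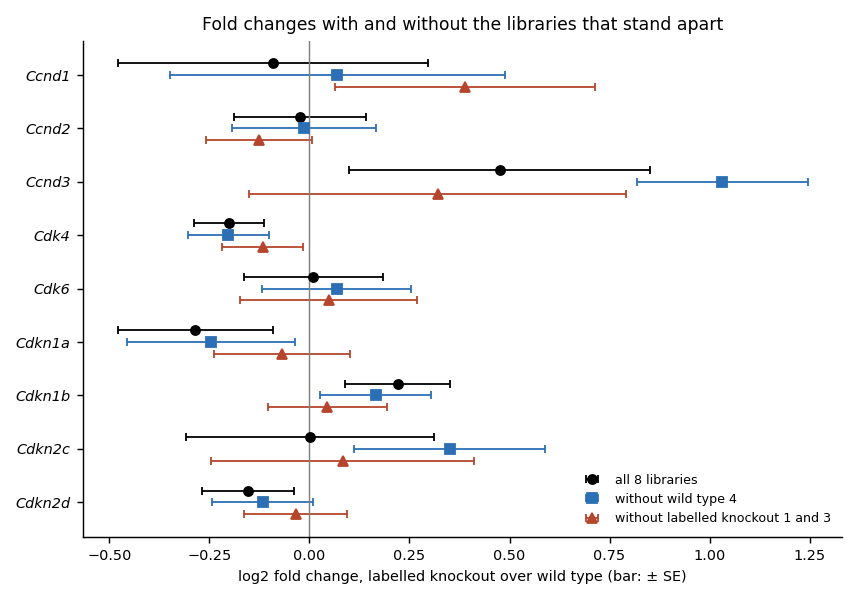
Log2 fold change (± SE) of each gene, labelled knockout over wild type, with all 8 libraries, without wild type 4, and without labelled knockout 1 and 3. Ccnd3 moves to 1.03 without wild type 4, and the values of Cdk4, Cdkn1a, Cdkn1b and Cdkn2d lie nearer 0 without labelled knockout 1 and 3. Each of these moves follows by construction, because the libraries left out are those that stand apart for the gene.

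For the 3 most variable members above 5 CPM, the named protein-coding genes with the smallest root mean square difference of log2 CPM deviations over the 8 libraries were read out among 8701 genes. For Ccnd3 these were Nfyc (0.065), a subunit of the CCAAT-binding factor NF-Y, Arcn1 (0.066), a coat protein of Golgi vesicles, and Rab11a (0.075), a GTPase of recycling endosomes. The median gene differed from Ccnd3 by 0.67, and 429 genes (4.93%) lay within 0.2 (a distance chosen after the values were seen), so its pattern was shared with many genes. For Cdkn2c they were Dek (0.14), Anp32b (0.15) and Rnf168 (0.16), with 11 genes (0.126%) within 0.2. For Cdkn1a they were the mitotic kinase gene Aurkb (0.077), Nadk2 (0.082) and Acot7 (0.092), with 238 genes (2.74%) within 0.2. All of these values share the same 8 libraries and describe likeness only.

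**Figure D5:**
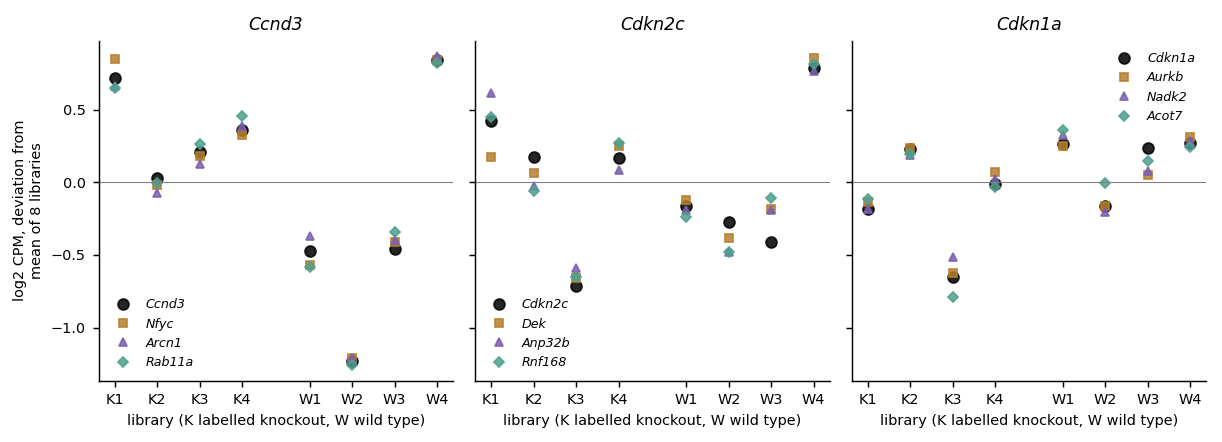
Deviation of log2 CPM from the mean of the 8 libraries for Ccnd3, Cdkn2c and Cdkn1a (black) and the 3 genes nearest to each (coloured), with the labelled knockout (K) left of wild type (W). Ccnd3 and its 3 nearest genes are high in W4 and K1 and low in W2, and Cdkn2c and Cdkn1a are lowest in K3.

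The genes around these regulators were read as lists, in which 0 genes passed over all genes. Of 10 other cyclins and CDKs, 2 had higher and 8 lower values, and the median log2 fold change was -0.20. Cdk1, the mitotic kinase, had 120.2 ± 51.1 CPM in the labelled knockout and 201 ± 18.4 CPM in wild type, and Ccne2, a cyclin E gene, 71.4 ± 26.5 and 110.4 ± 14.1 CPM (SD, n = 4 each). Cdk1 did not overlap between the groups and Ccne2 did. Of 13 pocket protein and E2F genes, 9 were higher and 4 lower with a median of 0.029, and the smallest unadjusted p belonged to E2f4 and E2f8. E2f4 had 63.3 ± 9.94 CPM in the labelled knockout and 39.7 ± 21.8 CPM in wild type, and E2f8 30.4 ± 9.78 and 41.2 ± 7.80 CPM (SD, n = 4 each), so they differ in direction.

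Of the other CDK inhibitors, Cdkn2a and Cdkn2b were too low to be tested, at no more than 0.0896 and 0.147 CPM in any library. Cdkn3, a phosphatase that acts on CDKs, had 39.2 ± 16.2 CPM in the labelled knockout and 62.6 ± 9.06 CPM in wild type (SD, n = 4 each), and Cdkn1c, the p57 gene, had at most 0.574 CPM. Of 10 genes of D cyclin and p27 turnover, 6 were higher and 4 lower with a median log2 fold change of 0.071. Among them Fbxw8, a ubiquitin ligase subunit, had 7.40 ± 1.52 and 4.75 ± 0.644 CPM, and Cops5, a COP9 signalosome subunit, 96.1 ± 8.75 and 116 ± 8.63 CPM, in the labelled knockout and wild type (SD, n = 4 each). Neither gene overlapped between the groups, and they point in opposite directions.

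Of 12 upstream regulators, 10 had higher and 2 lower values (median log2 fold change 0.31). Foxo1, a factor that activates Cdkn1b in other cells, had 112 ± 24.4 CPM in the labelled knockout and 81.7 ± 3.13 CPM in wild type, and Ikzf1, the Ikaros gene, 222 ± 32.5 and 177 ± 17.7 CPM (SD, n = 4 each). Both were without overlap and neither passed. All 14 proliferation markers, of which Cdk1, Ccna2 and Ccnb1 also stand among the other cyclins and CDKs, had lower values in the labelled knockout. Their median was -0.54, and 8 were without overlap, beside 4.17% of all genes that were lower without overlap. The log2 fold changes of Rrm2 (-0.0026) and Ccna2 (-0.054) were so small that these genes hardly differed. Bub1, a spindle checkpoint kinase gene, had 55.8 ± 17.0 and 87.8 ± 8.99 CPM, and Tyms, the thymidylate synthase gene, 43.02 ± 14.5 and 68.0 ± 5.73 CPM, in the labelled knockout and wild type (SD, n = 4 each).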

How the data were processed

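RNA of 8 libraries labelled pro-B cells was sequenced after Trizol extraction and SMARTER library preparation, per the labels' protocols. The authors deposited raw counts per gene, made with featureCounts 2.0.1 over the exons of GENCODE M25 in paired mode with multi-mapping fragments counted, per the file headers, where no strand setting is recorded. STAR 2.7.7a, GATK 4.1.9.0 and the mm10 build are named in the submitters' processing notes, with no role given for GATK. The deposited exon length (unit: other) served for RPKM. Symbols were matched for 55141 identifiers and 346 stayed unnamed; the table had 0 columns of other samples.

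Counts were filtered with filterByExpr (18884 genes kept), scaled with TMM and compared by label alone in R 4.3.3 with edgeR 4.0.16 (robust glmQLFit, then glmQLFTest, two-sided). P-values were adjusted over all genes by the Benjamini-Hochberg method, with a threshold of 0.05. The steps were tested on simulated data in which 200 genes were changed. They called 4.55% of the genes changed 1.5-fold, 33.8% of those changed 2-fold and 83.3% of those changed 4-fold. Small changes would therefore mostly be missed. Alternatives used limma 3.58.1, DESeq2 1.42.0, other scalings, filters and left-out libraries. No 2 libraries of a group were alike within counting error: over 12 pairs, chi-square divided by its degrees of freedom was at least 29.5. Members, lists and alternatives were chosen with earlier results of these data known. All 9 members are named; in each list of cell cycle genes and their regulators, so are the 2 genes with the smallest unadjusted p. Marker lists are given as sums. Trp53, Myc, Il2ra, Dntt, Kit, Vpreb1, Igll1, Igkc and Cd3e fall outside this rule and were chosen, for their link to a member or label, after their values were seen.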

Additional observations from a re-analysis of the deposited data

Results flagged for a closer look

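Of 18 groups of 4 libraries looked at, 2 held a library farther from the rest than Dixon's critical ratio of 0.829 allows, and chance flags about 5% of such groups. In wild type, Cdkn1a had 17.5 CPM in library 2, with 23.0 CPM in the nearest library. In wild type, Cdkn2c had 31.2 CPM in library 4, with 16.2 CPM in the nearest library.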

How the results depend on the processing

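Of all genes, 363 passed without wild type 4 and 3112 with the sex term as well, and 1 member, Ccnd3, passed in each. DESeq2 called 6 genes and 0 members, and the other scalings, filters and tools called 0. Leaving out 1 library in turn gave 0 to 363 genes and 0 to 1 members. In those same fits the log2 fold change ran from -0.32 to 0.12 for Ccnd1, -0.20 to 0.075 for Ccnd2, -0.095 to 0.11 for Cdk6 and -0.15 to 0.35 for Cdkn2c, which therefore have no stable sign. With upper quartile factors Cdk6 was at -0.074 and Cdkn2c at -0.069, and without a filter Ccnd2 was at 0.0091. Ccnd1 was at 0.17 in limma-voom and at 0.39 without labelled knockout 1 and 3. Ccnd2 was at 0.017 with the sex term and at 0.013 with that term and without wild type 4. Ccnd3 and Cdkn1b stayed above 0, and Cdk4, Cdkn1a and Cdkn2d below 0, in all 19 alternatives. The cause of these changes was not tested. Upper quartile factors shifted the median of all genes by -0.093. Among genes at an unadjusted p under 0.05, 28.2% were then higher, against 43.8% with TMM, and 66.2% were without wild type 4. Their number was 1195 to 4277 with 1 library left out, 497 without labelled knockout 1 and 3, and 4646 with the sex term. Deviations of same-numbered libraries gave r = 0.0066, 0.636, 0.25 and -0.033 for pairs 1 to 4. For labelled knockout 1, r was 0.645 with wild type 4 and -0.656 with wild type 2, so unlike numbers reached similar values. The numbers were therefore not taken to pair the samples. A replicate block called 0 genes and 0 members, with 3057 genes at an unadjusted p under 0.05.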
